A study of Arabidopsis thaliana with 4 samples.

Results

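Class III peroxidases of Arabidopsis thaliana roots were examined on 4 Affymetrix Arabidopsis Gene 1.0 ST arrays, which give a log2 signal per row of the array. The members were 60 loci listed as class III peroxidases, AT1G49570 among them. Of these, 52 had a row that the platform annotation gives to 1 gene, out of 16548 genes with such a row, and 8 had none and were not analysed here. Those 8 were AT1G05240, RCI3 (AT1G05260), PER4 (AT1G14540), PRXCB (AT3G49120), PA2 (AT5G06720), RHS18 (AT5G22410), PER64 (AT5G42180) and RHS19 (AT5G67400).

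The arrays held root RNA of plants labelled CEPD1ox, CEPD2ox and CEPDL2ox and of the wild type (WT, accession Columbia), with 1 array for each. The overexpressed genes encode short polypeptides of the glutaredoxin kind, known as signals that travel from shoot to root and report nitrogen demand, and the suffix ox marks overexpression. The labels do not give the promoter of the transgenes, the number of lines behind each name or the number of plants per array. All 4 groups shared the same growth on vertical plates at 22 °C, with a transfer at 7 d to agar that supplied ample nitrogen (10 mM NH4Cl, 10 mM KNO3) and sampling of roots at 14 d. With 1 array per group there was no spread within a group, so no difference below was tested, and precision is limited by having 1 array each.

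Class III peroxidases are secreted heme enzymes that plants hold in large families. In the cell wall they use hydrogen peroxide to oxidise monolignols, extensins and other phenolic compounds, which stiffens the wall, and they can also make reactive oxygen species that loosen it or act in defence. In roots they are known from the lignin of the xylem and of the Casparian strip, the band that seals the endodermis, and from growing root hairs. The PRX numbers used below for loci that the gene table lists without a symbol come from knowledge of the loci.

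The labels were checked first. CEPD2 (AT2G47880) had a log2 signal of 9.22 in CEPD2ox, against 1.41 in WT, and CEPDL2 (AT3G62960) had one of 5.49 in CEPDL2ox, against 3.46 in WT. CEPD1 (AT1G06830) had a signal of 3.04 on the array labelled CEPD1ox, against 2.66 in WT, a small difference near background, so its overexpression was not seen and directions drawn from that array carry this limit. Over all rows, each pair of arrays correlated at a Pearson's r of 0.983 to 0.984. Of 7 markers of green shoot tissue, 2 had a named row and neither was at 0. Their summed signal was 5.97 on the array labelled CEPD1ox, 6.29 for CEPD2ox and 5.81 for CEPDL2ox, against 6.69 in WT, on the log2 scale. The sum rests mostly on RCA, and PRK (AT1G32060), the other marker, had 3.27, 2.94 and 2.47, against 4.58 in WT, with log2 ratios of -1.31, -1.63 and -2.10. The part of these markers in the differences below was not tested. Of 9 Casparian strip genes that are no peroxidases 2 had a row, with a summed signal of 9.14, 9.08 and 9.21 in the same order of lines, against 9.11 in WT. Of 6 root hair genes 2 had one, with 8.76, 8.56 and 8.99, against 8.64 in WT. In bulk roots, fewer cells of a type and less RNA per cell cannot be told apart.

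In WT roots the peroxidases covered much of the array's range, with log2 signals between 2.04 and 11.96 and a median of 6.97, against a median of 4.99 over all 16548 genes. At or above 8.30, the level reached by 10.0% of all genes, lay 18 of the 52 members (34.6%). At or above the median of all genes lay 36 (69.2%). Signals under a filter value of 2.78, which 25% of the gene values on the 4 arrays fall short of, are taken here as near background. In WT 5 members lay below this value (9.62%, against 25.3% of all genes). Each row has its own probes, so the order of the signals is not the order of the transcript amounts.

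**Figure D1:**
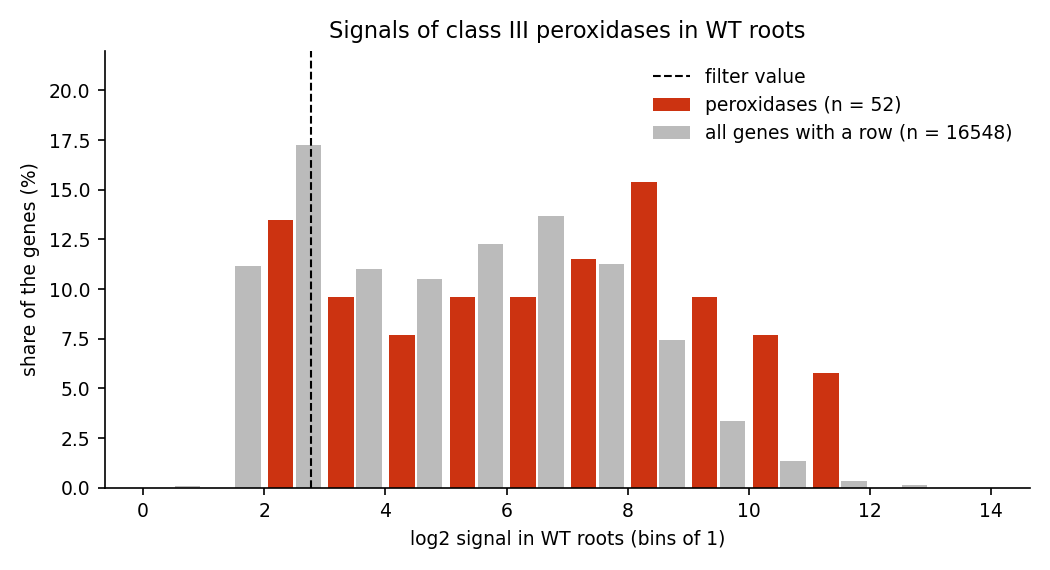
Share of genes (%, vertical axis) by log2 signal on the WT array (horizontal axis, bins of 1), for the 52 class III peroxidases and for all 16548 genes with a row. The dashed line is the filter value of 2.78, and 18 of the 52 peroxidases lie at 8.30 or above, beside 10.0% of all genes.

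The member with the highest WT signal was PRXR1 (AT4G21960), with 12.01 on the array labelled CEPD1ox, 11.94 for CEPD2ox and 11.95 for CEPDL2ox, against 11.96 in WT. AT3G32980 had 11.88, 11.84 and 11.92 in the same lines, against 11.93 in WT. AT3G21770 had 11.10, 11.03 and 11.09, against 11.16 in WT. On the 4 arrays each of these members thus stayed within a narrow band, and their log2 ratios to WT lay between -0.13 and 0.04.

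AT2G18980 followed with 10.66, 10.57 and 10.75 in the 3 lines, against 10.70 in WT. Prx37 (AT4G08770), known for effects on stem growth when overexpressed, had 10.02, 10.29 and 10.04, against 10.22 in WT. AT3G49960 had 9.74, 9.71 and 10.16, against 10.00 in WT, so that CEPDL2ox alone lay above WT. The other members among the 8 highest were PRX47 and PRX72, which are described with the lignin enzymes.

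AT1G49570, known as PRX10, differed most from WT among the members, and in each line. Its log2 signal was 6.04 on the array labelled CEPD1ox, 6.30 for CEPD2ox and 6.65 for CEPDL2ox, against 4.18 in WT. All 3 lines lay above WT, and the gap from the lowest line to WT was wider than the 0.61 that separated the lines. The log2 ratios were 1.86, 2.13 and 2.47, or 3.63-, 4.36- and 5.55-fold. The 3 ratios share the WT array, so they are not separate measurements of the same difference. In WT the signal was above background, at percentile 41.2 of all genes. This locus was already known from these arrays when the members were listed, so its ratios are a description.

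AT2G41480, PRX25, a peroxidase linked to lignin in stems, had a signal of 5.49 on the array labelled CEPD1ox, 5.24 for CEPD2ox and 4.64 for CEPDL2ox, against 4.38 in WT. The lines lay above WT by log2 ratios of 1.11, 0.86 and 0.25, and CEPDL2ox was the closest to WT. The fold was 2.15 on the array labelled CEPD1ox, 1.81 for CEPD2ox and 1.19 for CEPDL2ox. PRX25 thus differed from WT in another order of lines than AT1G49570, which was furthest from WT in CEPDL2ox. Both orders rest on 1 array per line and were not tested. For genes with a mean signal of 3 to 5, like PRX25, the SD of a difference between 2 lines was 0.39 to 0.43. For those of 5 to 7, like AT1G49570, it was 0.24 to 0.27.

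PRXCA (AT3G49110, PRX33), known with its close relative PRXCB for the apoplastic oxidative burst in defence, lay below WT. It had signals of 1.90 on the array labelled CEPD1ox, 1.87 for CEPD2ox and 2.41 for CEPDL2ox, against 2.93 in WT, with log2 ratios of -1.03, -1.06 and -0.52. The signals of all 3 lines were below the filter value, and WT was only just above it, so this member passed the filter through WT alone and its ratios are set near background. PRXCB had no named row, and probes that the 2 genes may share were not examined.

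AT2G18150, PRX15, had a signal of 7.62 on the array labelled CEPD1ox, 7.69 for CEPD2ox and 7.91 for CEPDL2ox, against 8.22 in WT. Every line was lower than WT, by log2 ratios of -0.61, -0.53 and -0.31, at a signal far above background. Among the 26 members with a mean signal of 7 or above, -0.61 was the ratio furthest from 0.

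AT1G14550, PRX5, separated the lines. It had signals of 6.33 on the array labelled CEPD1ox, 5.46 for CEPD2ox and 5.51 for CEPDL2ox, against 6.16 in WT. The array labelled CEPD1ox was thus near WT, with a log2 ratio of 0.16, while CEPD2ox and CEPDL2ox were lower, at -0.70 and -0.65. Its SD between the 3 lines, 0.48, was the highest among the 11 members with a mean signal of 5 to 7. Over 4326 genes of that signal the 95th percentile was 0.35. The highest of 11 members is a picked value, so its place past that percentile is a description only.

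AT5G19890 had a signal of 6.39 on the array labelled CEPD1ox, 6.55 for CEPD2ox and 6.47 for CEPDL2ox, against 5.99 in WT. The lines lay within 0.16 of each other and lay above WT by 0.40, 0.56 and 0.48, short of 1.5-fold in each. This member was chosen for its values, as the one nearest below that bound in any line.

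**Figure D2:**
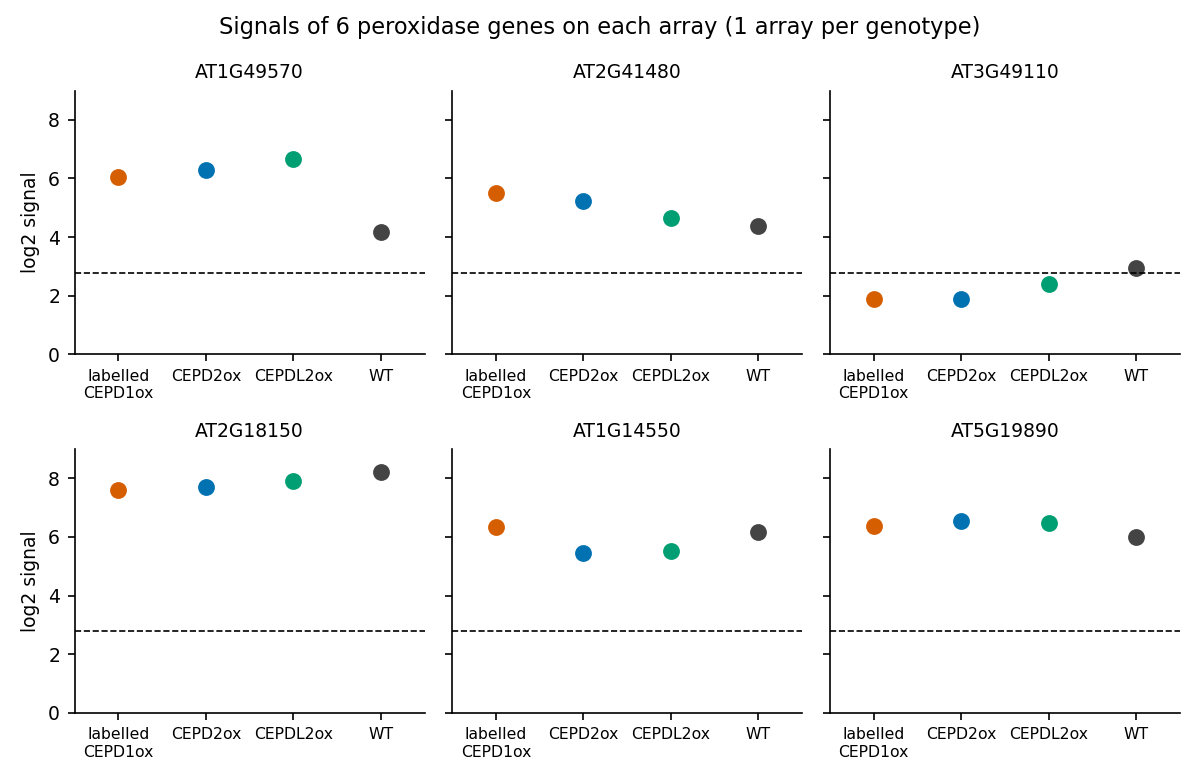
Log2 signal (vertical axis) of 6 peroxidase genes on each of the 4 arrays (horizontal axis), with 1 array per genotype and so no error bar; the dashed line is the filter value of 2.78. AT1G49570 lies between 6.04 and 6.65 in the lines and at 4.18 in WT, while AT1G14550 is near WT only on the array labelled CEPD1ox.

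Few members were 2-fold or more from WT, as was so for all genes. Of the 52 with a row, 48 had a signal at or above 2.78 on at least 1 array and entered the counts of differences from WT, as did 13232 of all genes. On the array labelled CEPD1ox, 2 members were at least 2-fold higher than WT, AT1G49570 and AT2G41480, where 0.733% of all genes were, and 1 was lower, AT3G49110, where 0.476% of all genes were. In CEPD2ox, AT1G49570 was the 1 member higher, beside 0.506% of all genes, and AT3G49110 the 1 lower, beside 0.393%. In CEPDL2ox, AT1G49570 was the 1 member higher, beside 0.771% of all genes, and 0 members were lower, beside 0.491%. Counts of 0 to 2 among 48 members are too few to set apart from these shares. AT1G49570 was known from these arrays when the members were listed. AT3G49110 passed the filter through WT alone and so could only lie below WT. The counts that hold them are thus a description.

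A bound of 1.5-fold gave similar counts. On the array labelled CEPD1ox 2 members were higher and 2 lower, beside 3.93% and 2.99% of all genes. In CEPD2ox 2 were higher and 2 lower, beside 3.3% and 2.63%, and in CEPDL2ox 1 was higher and 1 lower, beside 3.28% and 3.35%. These calls fell on AT1G49570, AT2G41480, AT3G49110, AT2G18150 and AT1G14550. The other 43 members past the filter stayed between -0.50 and 0.56 on the log2 scale in every line, and 15 of them within 0.2 of WT in all 3 (31.2% of the 48, beside 33.4% of all genes).

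**Figure D3:**
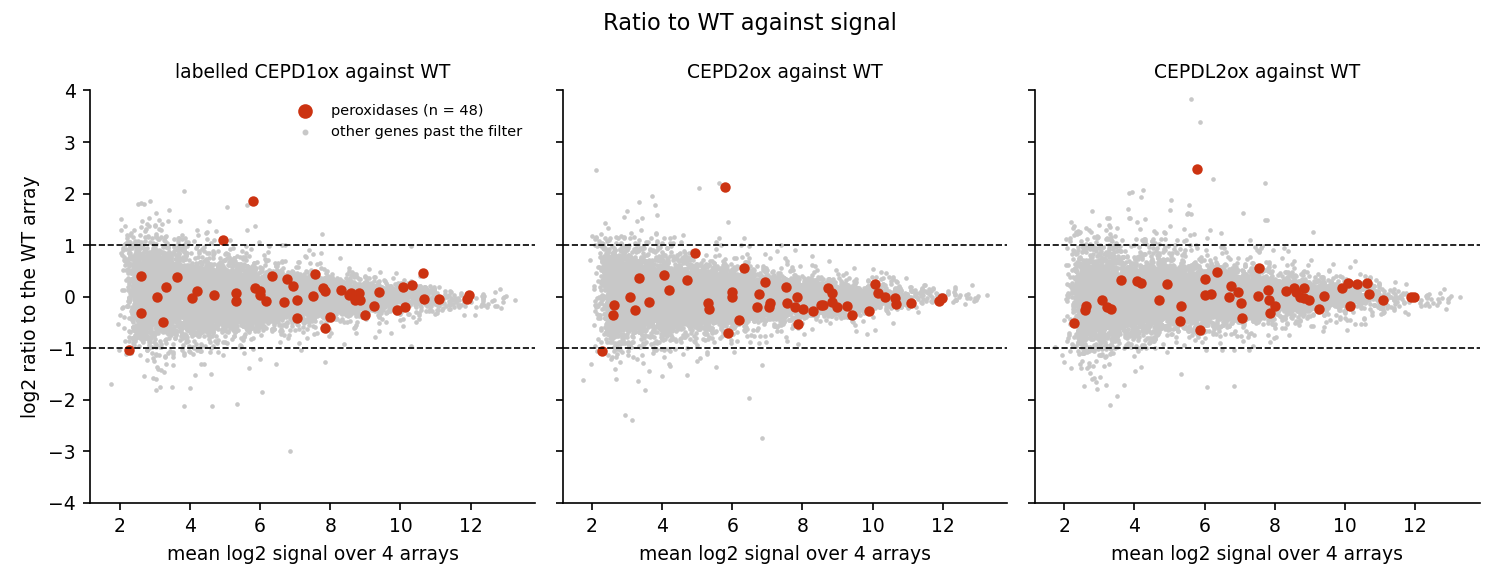
Log2 ratio to the WT array (vertical axis) against the mean log2 signal over the 4 arrays (horizontal axis) for the 48 peroxidases past the filter and the other genes, in 1 panel per line; dashed lines mark 2-fold. AT1G49570 is the peroxidase highest in each panel, at 1.86, 2.13 and 2.47, and 1 gene, CEPD2 at 7.82 in CEPD2ox, lies outside the axis.

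The median log2 ratio of the 48 members was 0.04 on the array labelled CEPD1ox, -0.11 for CEPD2ox and 0.00 for CEPDL2ox, beside medians over all genes within 0.01 of 0. In CEPD2ox 33 of the 48 members had a signal below WT (68.8%, beside 50.3% of all genes). This count holds AT3G49110 and AT5G40150, which passed the filter through WT alone and so could only lie below WT. Of the 26 members with a mean signal of 7 or above, 21 lay below WT in CEPD2ox (80.8%, beside 52.6% of 3942 genes), with a median ratio of -0.12. The differences were small, and the median absolute ratio of those 26 members in CEPD2ox was 0.16, beside 0.09 over the genes of like signal. It was above that of such genes in the other lines too. The values were 0.12 beside 0.09 on the array labelled CEPD1ox and 0.13 beside 0.10 in CEPDL2ox. For CEPDL2ox, and likewise for the array labelled CEPD1ox, 13 of these 26 members lay below WT (50%, beside 47.0% and 50.1% of the genes of like signal).

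By known role, the enzymes of the Casparian strip came first. Of 5 listed, 3 had a row. AT5G66390, PRX72, also known for lignin in stems, had a signal of 10.45 on the array labelled CEPD1ox, 10.22 for CEPD2ox and 10.47 for CEPDL2ox, against 10.23 in WT. AT4G11290, PRX39, had 7.49, 7.66 and 7.47, against 7.47 in WT. AT1G44970, PRX9, had 6.67, 6.57 and 6.76, against 6.78 in WT. The ratios of these enzymes lay between -0.21 and 0.25, and 0 of 3 passed 2-fold in any line. Per line and direction 0.393% to 0.771% of all genes did, so 0 of 3 cannot be set apart from these shares.

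Of 8 enzymes linked to lignin in vessels, fibres or stems, 7 had a row. PRX25 alone passed 2-fold, on the array labelled CEPD1ox only, where 0.733% of all genes were at least 2-fold higher. AT4G33420, PRX47, had a signal of 10.93 on the array labelled CEPD1ox, 10.44 for CEPD2ox and 10.72 for CEPDL2ox, against 10.47 in WT. AT5G51890, PRX66, known from xylem vessels, had 8.45, 8.05 and 8.43, against 8.32 in WT. In both, CEPD2ox was the lowest of the 4 arrays. AT4G36430, PRX49, had 7.81, 7.97 and 8.03, against 8.21 in WT, so that every line was lower.

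AT2G22420, PRX17, had a signal of 5.97 on the array labelled CEPD1ox, 5.97 for CEPD2ox and 6.20 for CEPDL2ox, against 5.87 in WT. PRX52 (AT5G05340), known from lignin of the interfascicular fibres, had 3.86, 4.31 and 4.20, against 3.89 in WT. Its ratios of -0.03, 0.42 and 0.31 stand at a low signal, where lines differ more among themselves. For genes with a mean signal of 3 to 5 the median SD between the lines was 0.20, against 0.09 for those of 7 to 10.

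Of 5 root hair enzymes 2 had a row. AT4G26010, PRX44, had a signal of 8.66 on the array labelled CEPD1ox, 8.44 for CEPD2ox and 8.68 for CEPDL2ox, against 8.59 in WT. AT5G64100, PRX69, had 8.63, 8.86 and 8.68, against 8.69 in WT. Their log2 ratios to WT lay between -0.15 and 0.17.

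Of the root tip enzymes known as targets of UPBEAT1 (UPB1), a transcription factor that balances division and elongation through peroxidases, all 3 had a row. AT5G17820, PRX57, had a signal of 8.87 on the array labelled CEPD1ox, 8.70 for CEPD2ox and 8.97 for CEPDL2ox, against 8.80 in WT. AT4G16270, PRX40, which acts with PRX9 in the tapetum of anthers, had 6.21, 5.84 and 6.36, against 6.30 in WT. UPB1 itself (AT2G47270) had 4.21, 4.79 and 4.18, against 4.34 in WT, and was highest in CEPD2ox, at a log2 ratio of 0.45. For genes with a mean signal of 3 to 5 the SD of the CEPD2ox ratio to WT was 0.39. PRX40 and PRX57 were lowest in CEPD2ox, which was the lowest line for 25 of the 48 members past the filter. A link of UPB1 to these enzymes was not tested. PRX39, the other such enzyme, was highest in CEPD2ox, at 7.66.

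AT3G50990, PER36, known from the seed coat, where it loosens the wall before mucilage is released, had a signal of 2.76 on the array labelled CEPD1ox, 2.19 for CEPD2ox and 2.64 for CEPDL2ox, against 2.27 in WT. It was below the filter value on all 4 arrays, as were AT2G24800, AT5G58400 and AT3G17070, so these 4 members were left out of the counts past a fold. AT5G40150 passed the filter through WT alone, at 2.83, and AT1G24110 through the array labelled CEPD1ox alone, at 3.02.

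Of 5 pairs of members with no other protein-coding gene between them, 3 had a row for both genes. PRXCA and PRXCB lie close together too, with AT3G49115 between them. AT2G18140, PRX14, the neighbour of PRX15, had a signal of 3.44 on the array labelled CEPD1ox, 3.63 for CEPD2ox and 3.01 for CEPDL2ox, against 3.26 in WT. Its ratios of 0.18, 0.37 and -0.25 differed in sign among the lines, while PRX15 was lower than WT in each. AT2G38380, PRX22, had 8.79, 8.94 and 9.08, against 9.14 in WT, and its neighbour AT2G38390, PRX23, had 5.48, 5.18 and 5.23, against 5.41 in WT. AT4G37530, PRX51, had 8.56, 8.37 and 8.69, against 8.53 in WT, and its neighbour AT4G37520, PRX50, had 4.66, 4.96 and 4.55, against 4.63 in WT. In CEPD2ox PRX51 was thus at its lowest and PRX50 at its highest. AT5G06730, PRX54, whose neighbour PA2 had no row, had 6.03, 5.98 and 6.02, against 5.99 in WT, with log2 ratios of 0.03, -0.01 and 0.03.

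**Figure D4:**
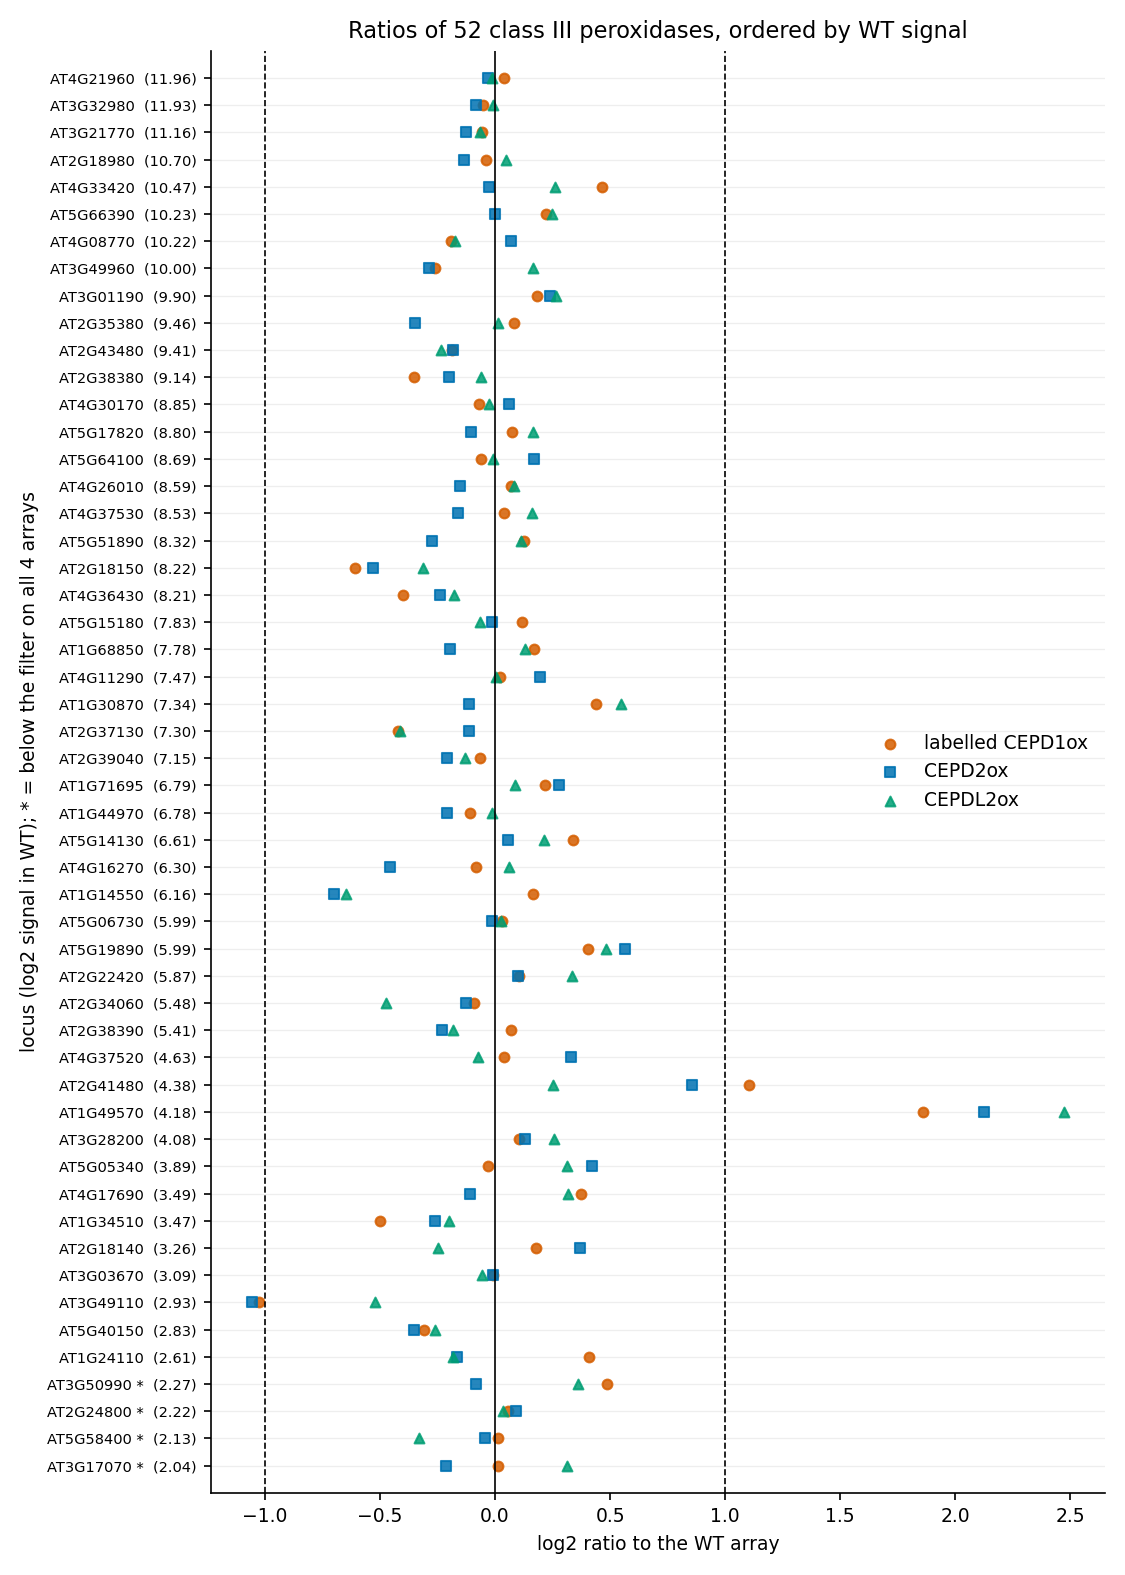
Log2 ratio to the WT array (horizontal axis) of the 52 peroxidases with a row (vertical axis, ordered by their WT signal, given in parentheses), 1 symbol per line; dashed lines mark 2-fold and a star marks a member below the filter on all 4 arrays. AT1G49570 is furthest from 0 at 1.86, 2.13 and 2.47, and the 4 members with the highest WT signals lie between -0.14 and 0.05.

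Among the remaining members, AT1G30870 had a signal of 7.77 on the array labelled CEPD1ox, 7.22 for CEPD2ox and 7.88 for CEPDL2ox, against 7.34 in WT. It was higher than WT by 0.44 for the array labelled CEPD1ox and by 0.55 for CEPDL2ox, and was -0.11 from WT in CEPD2ox. AT2G37130 had 6.88, 7.19 and 6.89, against 7.30 in WT, and was lower by -0.42, -0.11 and -0.41. AT3G01190 had 10.09, 10.14 and 10.17, against 9.90 in WT, with the lines within 0.08 of each other. These 3 members were chosen after their values were seen.

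Set against each other rather than against WT, the lines had 0 members 2-fold apart. Between CEPD2ox and the array labelled CEPD1ox the differences of the 48 members ran from -0.86 (AT1G14550) to 0.45, where 0.574% of all genes were at least 2-fold higher and 0.68% lower. Between CEPDL2ox and the array labelled CEPD1ox they ran from -0.85 (AT2G41480) to 0.61 (AT1G49570), where 0.438% were higher and 0.854% lower. Between CEPDL2ox and CEPD2ox they ran from -0.61 (AT2G18140) to 0.66 (AT1G30870), where 0.65% were higher and 0.673% lower.

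Of the wider pathway few listed genes had a named row. Of 18 genes of monolignol synthesis and laccases only HCT (AT5G48930), which makes the shikimate esters of monolignol synthesis, could be read, with 9.62 on the array labelled CEPD1ox, 9.57 for CEPD2ox and 9.69 for CEPDL2ox, against 9.49 in WT. Of 10 NADPH oxidases, which make the superoxide from which hydrogen peroxide forms, 2 could be read. RBOHG (AT4G25090) had 8.16, 8.21 and 8.34, against 8.29 in WT, and RBOHI (AT4G11230) had 6.93, 6.91 and 6.80, against 6.68 in WT. Of the Casparian strip genes, SGN1 (AT1G61590), a receptor-like cytoplasmic kinase, had 8.33, 8.31 and 8.38, against 8.31 in WT. SGN3 (AT4G20140), the receptor that surveys the closure of the strip, had 7.92, 7.82 and 8.02, against 7.88 in WT. The root hair expansin EXPA18 (AT1G62980) had 8.36, 8.14 and 8.63, against 8.24 in WT, and EXPA7 (AT1G12560) had 6.72, 6.58 and 6.83, against 6.60 in WT. None of these genes passed 2-fold in any line, where 0.393% to 0.771% of all genes did per line and direction. So few genes cannot be set apart from these shares, and the listed genes without a row were not read.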

How the data were processed

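Values are log2 signals per transcript cluster that the authors deposited, and the submitters' processing notes name Affymetrix Expression Console 1.3. How signals were summarized and normalized, and the genome build, is not given in the sources used here. A log base of 2 was taken from their range, 0.431 to 13.8. They were used as deposited. Of 38408 rows, 16722 were annotated with 1 gene, 759 with several and 20927 with none. Of the first, 16574 could be matched to TAIR10.1 loci, which set the genes, the rows of the members, the names and the neighbours. The other 148 were kept under their annotated symbol. A gene's row was that with the highest mean signal; no member had several. Genes below 2.78 (25th percentile) on all 4 arrays were left out, which kept 13232 of 16548. A fold is 2 raised to a log2 difference.

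Members and lists were chosen with earlier results of these arrays known. Values on every array were given for AT1G49570, members at least 2-fold from WT in a line or 1.5-fold in all 3, the 8 highest in WT and members of role or neighbour lists. Members described outside this rule were AT1G30870, AT2G37130, AT3G01190 and AT5G19890. Counting was checked on simulated data. Alternatives were thresholds, filters, normalizations and averaging rows. R 4.3.3, limma 3.58.1, Python 3.11.15, numpy 2.4.6 and pandas 2.3.3 were used.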

Additional observations from a re-analysis of the deposited data

How the results depend on the processing

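The log2 ratio of AT1G49570 stayed between 1.86 and 1.91 on the array labelled CEPD1ox, between 2.13 and 2.18 in CEPD2ox and between 2.45 and 2.48 in CEPDL2ox under averaging of rows and under normalization by cyclic loess, quantiles or a shift to the same median. At 1.5-fold, 2 members were lower on the array labelled CEPD1ox, 2 higher and 2 lower in CEPD2ox, and 1 lower in CEPDL2ox. At 3-fold, 1 was higher on the array labelled CEPD1ox and 0 were lower there or in CEPD2ox. With a filter at the median, 0 were lower in either, since AT3G49110 was left out. After the shift to the same median 0 were lower on the array labelled CEPD1ox, where AT3G49110 came to -0.98. The median ratio of the members in CEPDL2ox lay between -0.02 and 0.02 over all alternatives and so changed sign; in CEPD2ox it lay between -0.11 and -0.08, and on the array labelled CEPD1ox between 0.04 and 0.09, highest after the shift to the same median. The members below WT in CEPD2ox numbered 33 of 48 as deposited, 31 of 48 after cyclic loess and 30 of 48 after quantiles. After the shift to the same median they numbered 29 of 49. This alternative was chosen after seeing the data, and shares over all genes under these normalizations are not given here. No paired analysis was possible because each group had 1 array. Signals near background limit the ratios of AT3G49110 and of the members with low signals.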

Other observations

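Without the WT array, the lines could be ordered among themselves. CEPD2ox had the lowest of the 3 line signals in 25 of the 48 peroxidases past the filter (52.1%, beside 36.3% of 13232 genes). The array labelled CEPD1ox was lowest in 13 (27.1%, beside 31.9%) and CEPDL2ox in 10 (20.8%, beside 31.8%). CEPDL2ox was highest in 20 members (41.7%, beside 33.6% of all genes). Among the 26 members with a mean signal of 7 or above, CEPD2ox was lowest in 15 (57.7%, beside 40.9% of 3942 genes) and CEPDL2ox in 3 (11.5%, beside 27.4%). Each share rests on 1 array per line and was not tested. The 8 readable genes of lignin synthesis, NADPH oxidases, Casparian strip, root hairs and UPB1 were ordered too. Among the lines, 5 were lowest in CEPD2ox and highest in CEPDL2ox (HCT, SGN1, SGN3, EXPA7 and EXPA18), while RBOHG, RBOHI and UPB1 were not. Over all genes, CEPD2ox was lowest in 36.3% and CEPDL2ox highest in 33.6%, and a share for both at once is not given here. Some gaps were small, with SGN1 between 8.31 and 8.38 in the lines, and the order was not tested. CEPH (AT4G32950), a type 2C phosphatase gene, had 5.45 on the array labelled CEPD1ox, 5.87 for CEPD2ox and 7.51 for CEPDL2ox, against 3.67 in WT. The order of arrays was that of AT1G49570, but the log2 ratios of CEPH were 1.78, 2.21 and 3.84, against 1.86, 2.13 and 2.47. How many of all genes have this order is not given here.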
